A study of Mus musculus with 90 samples.

Results

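The frontal cortex of resident male mice was examined 30 min after a territorial challenge, in 10 of the 90 libraries of the series. The members are all frontal cortex libraries of that time in the count table, 5 from intruder-exposed residents and 5 from controls, and only rows that name a gene were used. The study asked how the brain of a territory holder responds over time to the presence of a rival male. All residents were C57BL/6J males, kept first with males for 2 weeks, then singly for 1 week, then with a C57BL/6J female for 1 week, and the female was taken away 3 h before the test. Intruder-exposed residents met an unfamiliar BALB/cJ male held inside a small cage of steel wire mesh for 5 min. Controls met the same wire cage with a paper cup in it for 5 min. Both groups then sat in the dark and quiet for 30 min, were killed by cervical dislocation as the design text has it, and the frontal cortex was taken out. No genetic change is named for either group, and their age was not given in the sources used here. The design text also says that RNA was pooled for the libraries without saying which RNA, so the p-values measure the spread between libraries, which may in part be technical. The libraries are called control 1 to 5 and exposed 1 to 5 in what follows, and values are always given in that order.

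As background, neurons that become active switch on immediate-early genes within minutes, without new protein synthesis. Fos, Egr and Nr4a family transcription factors are the first products, and their mRNA in a dissected region is widely read as a trace of recent firing. The frontal cortex takes part in the control of aggression and of social approach. Neurons draw most of their energy from the respiratory chain of mitochondria, whose complexes I to V are built from many proteins encoded in the nucleus and a few encoded in mitochondrial DNA.

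The 10 libraries held 44559095 to 53555041 gene reads each, with 20866 to 21298 genes detected. The biological coefficient of variation was 10.3%, estimated by edgeR over all 32 frontal cortex libraries. Reads carry no molecular identifiers. Levels are given as CPM, a gene's reads as a share of the TMM-scaled library total, and a difference is the log2 fold change of intruder-exposed over control residents. The label was checked against markers: the glutamate transporter gene Slc17a7, a marker of cortical excitatory neurons, lay at 1300 ± 37.98 CPM in controls and 1253 ± 111 CPM in exposed libraries (SD, n = 5 each). A score of 7 measured hypothalamic markers, the mean of log2(CPM + 1) over the genes, stayed between 0.261 and 0.657 in all 10 libraries. Exposed 2 and exposed 4 stood apart. Of 13973 genes at 1 CPM or more, exposed 2 held the highest value of the 10 libraries for 18.5% and exposed 4 for 14.9%. The chi-square per gene between these 2 libraries was 42.3, the largest of the 20 pairs within a group, beside 5.97 to 16.1 among controls. Exposed 1 and exposed 2 also carry another sequencing index than the other 8 libraries. All 28 libraries taken at 30 min bear the letters ISO in the count table's header and all later ones the letters CERV, which the labels do not explain, so any comparison between times cannot be told apart from what these letters stand for.

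No gene passed the test at an adjusted p of 0.05 in the comparison of intruder-exposed and control residents (edgeR quasi-likelihood test with Benjamini-Hochberg adjustment over 17091 genes; 0 called, 0%). The smallest adjusted p was 0.771. An unadjusted p below 0.05 was reached by 1074 genes, or 6.28%, of which 430 (2.52%) were higher and 644 (3.77%) lower in intruder-exposed residents. DESeq2 also called 0 genes, and 1011 reached that p. The counts for limma voom were 0 and 1111. With upper-quartile scaling in place of TMM, 537 genes were higher and 436 lower at that p. Over all genes the median log2 fold change was 6e-04, with quartiles of -0.062 and 0.076. The genes described from here on come from gene lists and from the order of p-values, and none of them was called.

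The immediate-early transcription factors spread more widely among intruder-exposed residents than among controls, and their group means were close. A wider spread was not particular to this list. Over genes in general, the chi-square per gene ran from 13.3 to 42.3 between exposed libraries and from 5.97 to 16.1 between controls. As a score over the 20 factors, the mean of log2(CPM + 1), controls were at 5.17, 4.83, 4.996, 4.98 and 4.86 and exposed libraries at 5.13, 4.87, 4.78, 5.79 and 4.59. Of 20 factors tested, 16 were higher and 4 lower in mean, beside 50.2% and 49.8% of all genes, with a median log2 fold change of 0.11. Jun and Btg2 were the 2 of 20 at an unadjusted p below 0.05 in edgeR, both higher, beside 2.52% of all genes. Without exposed 4 there were 1 higher and 2 lower at that p, and without exposed 2 and 4 there was none. Exposed 4 held the highest level of the 10 libraries for 19 of the 20 factors. Exposed 5 held the lowest for 14 of the 20, beside 12.8% of the genes at 1 CPM or more.

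The promoters of 3 members are shown, Fos and Npas4 because exposed 4 stood so high in them and Btg2 because it had 1 of the 2 smallest p of the list. Each run is the 250 bases before the transcription start in build GRCm38.p6, read on the gene's own strand, with Fos at chr12:85473640-85473889 (plus strand), Npas4 at chr19:4989972-4990221 (minus strand) and Btg2 at chr1:134079156-134079405 (minus strand). The sequences are RefSeq's. Capitals mark TGACGT on either strand, the core of the cyclic AMP response element that CREB binds, which reads ACGTCA when it lies on the other strand, and TATAA, the core of the TATA box.
Fos: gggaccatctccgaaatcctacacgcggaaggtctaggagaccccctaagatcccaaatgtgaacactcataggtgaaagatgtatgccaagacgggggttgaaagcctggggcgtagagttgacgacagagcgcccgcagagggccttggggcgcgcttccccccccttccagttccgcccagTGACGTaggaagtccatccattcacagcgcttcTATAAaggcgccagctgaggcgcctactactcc
Npas4: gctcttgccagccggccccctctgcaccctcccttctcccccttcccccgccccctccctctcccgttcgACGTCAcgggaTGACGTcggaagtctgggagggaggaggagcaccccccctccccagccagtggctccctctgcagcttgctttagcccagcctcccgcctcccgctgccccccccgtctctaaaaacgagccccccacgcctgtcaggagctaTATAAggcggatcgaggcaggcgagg
Btg2: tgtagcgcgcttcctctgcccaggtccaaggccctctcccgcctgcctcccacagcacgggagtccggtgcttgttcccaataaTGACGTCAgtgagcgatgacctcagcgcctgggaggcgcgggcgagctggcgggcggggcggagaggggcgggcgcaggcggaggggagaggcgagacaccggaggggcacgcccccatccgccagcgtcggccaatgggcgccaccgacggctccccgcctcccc
The Btg2 run holds the whole palindrome TGACGTCA, in which the cores of both strands overlap, and no TATAA. Among genes with a single start in the table, 6 of 13 factors held TGACGT and 5 held TATAA, beside 6.51% and 24.3% of 22862 genes over the same length. Also searched on both strands were the whole element TGACGTCA, the CArG box that serum response factor binds and the EGR site GCGTGGGCG, which 1, 0 and 0 of the 13 held, beside 1.61%, 1.38% and 0.516%. Over all 16 factors with a promoter, any start counted, 2, 1 and 1 held these motifs, beside 1.55%, 1.47% and 0.536% of 32851 promoters. Bases further upstream were not searched. TGACGT lies inside the whole element. These motifs were chosen after the sequences had been seen. A match is a description of the letters and not a binding site.

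Fos, the classical marker of neuronal activation, was at 66.95, 46.4, 53.5, 59.2 and 52.4 CPM in controls 1 to 5 and at 62.3, 61.7, 44.6, 119.5 and 30.8 CPM in exposed 1 to 5. Exposed 4 lay above every control and exposed 5 below every control, exposed 1 and exposed 2 lay within the control range, and exposed 3 lay just under it. The means were 55.7 ± 7.78 and 63.8 ± 33.8 CPM (SD, n = 5 each), and the log2 fold change was 0.20 with an SE of 0.23 (edgeR, unadjusted p 0.393). Fosb, a related subunit of the AP-1 factor, was at 24.4, 19.5, 25.6, 22.5 and 19.5 CPM in controls and at 25.3, 16.8, 20.7, 52.8 and 16.3 CPM in exposed libraries. Here again exposed 4 was the one library far from the rest. Npas4, a factor that responds to calcium entry in neurons and shapes inhibitory synapses, was at 30.7, 23.7, 22.8, 33.8 and 27.1 CPM in controls and at 29.8, 30.1, 24.5, 54.7 and 21.9 CPM in exposed libraries. Egr2, a zinc finger factor, was at 25.98, 17.3, 22.2, 26.1 and 18.8 CPM in controls and at 24.3, 17.1, 18.8, 60.6 and 10.6 CPM in exposed libraries, so exposed 4 was the highest and exposed 5 the lowest of all 10.

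The same 2 libraries bounded most of the remaining members. Egr1 was at 470, 383, 488, 546 and 473 CPM in controls and 419.9, 419, 455, 728 and 329 CPM in exposed libraries. Egr3 was at 71.5, 67.9, 77.3, 93.7 and 71.9 CPM in controls and 71.5, 49.3, 88.7, 117 and 52.6 CPM in exposed libraries. Egr4 was at 46.7, 39.1, 49.7, 53.04 and 40.9 CPM in controls and 47.8, 37.2, 39.7, 78.7 and 32.01 CPM in exposed libraries. Exposed 4 was the highest library for Egr1, Egr3 and Egr4, and the lowest was exposed 5 for Egr1 and Egr4 and exposed 2 for Egr3. Junb, a further AP-1 subunit, was at 108, 77.2, 86.4, 89.8 and 81.1 CPM in controls and 90.5, 91.6, 70.9, 173 and 53.8 CPM in exposed libraries. Nr4a1, an orphan nuclear receptor induced by activity, was at 199, 145, 153, 177 and 153 CPM in controls and 169, 155, 133, 318 and 88.7 CPM in exposed libraries. For Junb and Nr4a1 the control range lay wholly between exposed 4 and exposed 5.

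Jun and Btg2 had the smallest p of the 20 factors. Jun, the main partner of Fos in AP-1, was at 47.95, 45.1, 42.2, 31.3 and 37.7 CPM in controls and 64.3, 52.3, 34.9, 78.8 and 45.9 CPM in exposed libraries. Exposed 1, 2 and 4 lay above every control and exposed 3 and 5 within the control range, and the log2 fold change was 0.44 with an SE of 0.14 (edgeR, unadjusted p 0.00416, adjusted p 0.771). Btg2, an antiproliferative gene induced by activity, was at 26.5, 20.3, 17.7, 22.4 and 19.4 CPM in controls and 24.8, 41.4, 16.7, 46.3 and 23.2 CPM in exposed libraries. Exposed 2 and 4 lay far above the controls, exposed 3 was the lowest of all 10, and the log2 fold change was 0.52 with an SE of 0.20 (edgeR, unadjusted p 0.0159). Nr4a2, required for dopamine neurons and induced by activity in cortex, had a log2 fold change of 0.45 with an SE of 0.24, its exposed values ranging from 19.7 CPM in exposed 3 to 69.4 CPM in exposed 4.

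**Figure D1:**
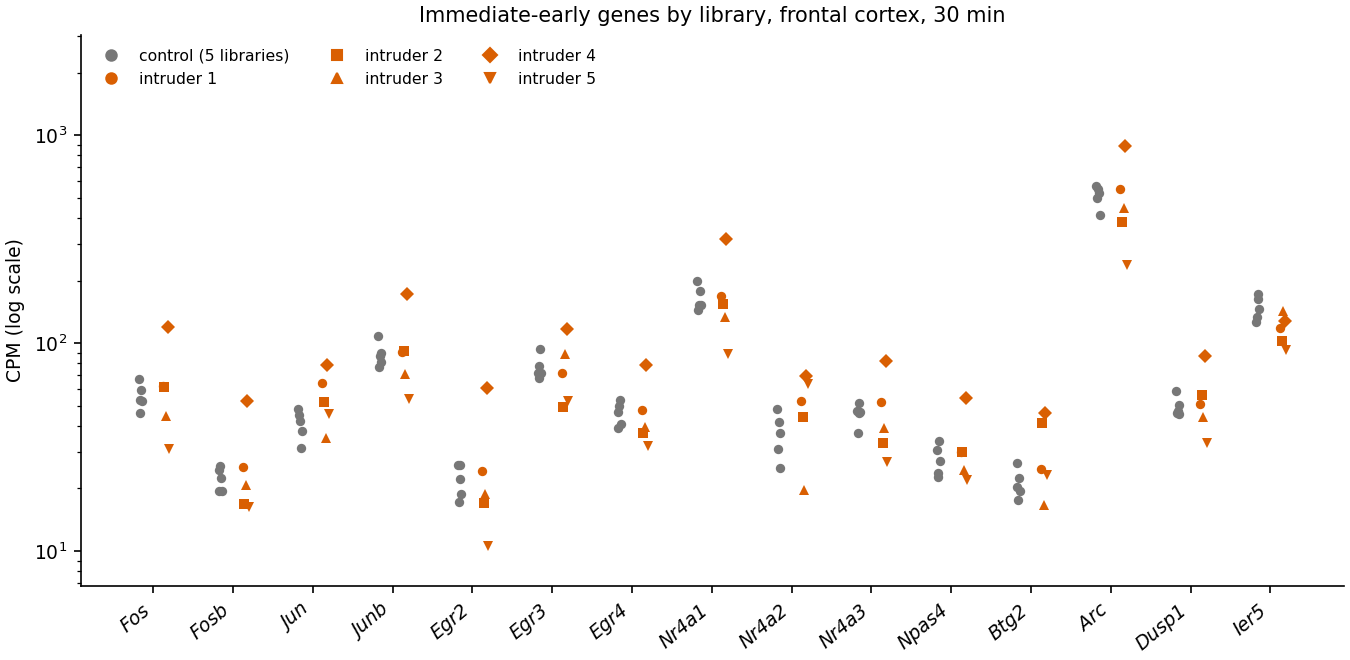
CPM on a log axis for 15 immediate-early genes in the 10 frontal cortex libraries at 30 min, with the 5 controls as grey circles and each exposed library as an orange symbol of its own. Exposed 4 (diamonds) is the highest library for Fos, at 119.5 CPM, and for most other genes shown, and exposed 5 (downward triangles) is the lowest for most of them.

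The direction of the immediate-early list depended on single libraries. Without exposed 4 the median log2 fold change was -0.18, with 3 factors higher and 17 lower, and without exposed 5 it was 0.23, with all 20 higher. Effector genes, which act at synapses or in signalling and are induced along with the factors, were also sensitive to exposed 4: 15 of 26 were higher, the median was 0.014, and without exposed 4 it was -0.13 with 5 higher and 21 lower. Exposed 4 was the highest library for 20 of the 26 effectors and exposed 5 the lowest for 14. Arc, which drives the removal of AMPA receptors from synapses, was at 570.2, 500.3, 549, 530 and 413 CPM in controls and 549.8, 384, 447, 888 and 237 CPM in exposed libraries. Dusp1, a phosphatase that shuts off MAP kinases, was at 59.1, 46.01, 47.2, 50.4 and 45.6 CPM in controls and 50.7, 56.2, 43.9, 87.1 and 33.02 CPM in exposed libraries. For both, exposed 4 was the highest and exposed 5 the lowest of the 10 libraries.

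Ccn1, Gadd45g and Ier5 were the 3 of 26 effectors that reached an unadjusted p below 0.05 in edgeR, beside 6.28% of all genes. Without exposed 4 no effector was higher at that p and 3 were lower. Ccn1, a matricellular protein, had a log2 fold change of 0.53 with an SE of 0.23, with exposed 4 at 23.3 CPM beside controls between 6.98 and 11.9 CPM. Gadd45g, a stress-inducible gene, was at 7.696, 7.003, 7.83, 6.503 and 7.298 CPM in controls and 9.82, 10.4, 5.699, 11.6 and 8.59 CPM in exposed libraries, with a log2 fold change of 0.35 and an SE of 0.16. Exposed 3 was the lowest of all 10 for it and the other 4 exposed libraries lay above every control. Ier5 went the other way: it was at 126, 134, 164, 172 and 147 CPM in controls and 118, 102, 142, 128 and 92.8 CPM in exposed libraries, a log2 fold change of -0.35 with an SE of 0.11 (edgeR, unadjusted p 0.00416). Exposed 3 and 4 lay within the control range of Ier5, and exposed 1, 2 and 5 below it.

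The labels give libraries of the same number and exposure at 30 min 1 animal identifier across regions, so the other regions of exposed 4 can be set beside it. In the amygdala its library had a score over the 20 factors of 4.56, with controls between 4.32 and 4.49 and exposed libraries between 4.43 and 4.62, and it was the highest of 10 for Junb, Egr3, Nr4a1 and Dusp1 at 73.8, 34.8, 103 and 32.2 CPM. In the hypothalamus its score was 3.55, with controls between 3.43 and 3.59 and exposed libraries between 3.52 and 3.99. It thus stood above all amygdala controls and within the range of the hypothalamic controls, and in neither region did it have the highest score. Fos in the amygdala was between 35.36 and 39.71 CPM in 5 controls and between 44.63 and 54.11 CPM in 5 intruder-exposed residents, with number 4 at 50.8 CPM. In the hypothalamus it was between 35.65 and 36.42 CPM in 3 controls and between 40.31 and 71.28 CPM in 5 intruder-exposed residents, with number 4 at 43.4 CPM. The groups did not overlap for Fos in either of those regions, whereas in frontal cortex they did. The log2 fold change of Fos was 0.39 in amygdala and 0.53 in hypothalamus beside 0.20 in frontal cortex, a difference that did not pass the test (edgeR, unadjusted p 0.336). None of the 20 factors reached an unadjusted p below 0.05 in that test of frontal cortex against the mean of both other regions, beside 6.39% of all genes.

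Nuclear genes for the respiratory chain had slightly lower means in intruder-exposed residents, and none passed the test. Of 78 genes for subunits of complexes I to V 77 were tested, and 76 were lower in mean, the median of their log2 fold changes being -0.10, beside 49.8% of all genes below 0. An unadjusted p below 0.05 in the lower direction was reached by 28 of the 77, beside 3.77% of all genes, and by none in the higher direction. Every intruder-exposed library lay under every control for 2 of them, beside 0.626% of all genes. Subunits of one chain vary together across libraries, so these counts are not independent observations.

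By complex, 36 of 37 subunits of complex I, the NADH dehydrogenase, were lower with a median of -0.10, and 14 reached an unadjusted p below 0.05, beside 3.77% of all genes. That count was 4 without exposed 4, 20 without exposed 2 or exposed 5 and 9 with upper-quartile scaling. For complexes II to V the counts were 2 of 4, 4 of 9, 5 of 11 and 3 of 16. Without exposed 4 they were 1, 2, 3 and 2, and without exposed 2 they were 2, 5, 6 and 11. With the index term complex III had 2 and complex V 7. All 4 subunits of complex II, succinate dehydrogenase, were lower with a median of -0.076, and so were all 9 of complex III, the cytochrome c reductase, with a median of -0.097. Complex IV, cytochrome c oxidase, had a median of -0.12 with 11 of 11 lower, which was -0.074 with the length correction, and complex V, the ATP synthase, -0.095 with 16 of 16 lower, which was -0.058 without control 5. The medians of the 5 complexes were close to one another. Genes of the same chain that are encoded in mitochondrial DNA had a median of -0.025 over 12 tested, 8 of them lower. That direction was not stable: with the length correction 8 were higher with a median of 0.024, without exposed 4 or with upper-quartile scaling 6 were higher and 6 lower, and without control 1 the median was 0.0050.

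Atp5g1, which encodes the membrane ring subunit c of the ATP synthase, was at 80.9, 86.5, 83.1, 89.5 and 84.4 CPM in controls and 76.97, 74.4, 75.5, 76.4 and 79.95 CPM in exposed libraries. The groups did not overlap, and the log2 fold change was -0.15 with an SE of 0.047 (edgeR, unadjusted p 0.003798, adjusted p 0.771). Ndufa5, an accessory subunit of complex I, was at 42.5, 42.5, 46.8, 48.2 and 49.8 CPM in controls and 37.4, 41.2, 41.5, 39.5 and 42.3 CPM in exposed libraries. Its groups were also apart, though control 2 and exposed 5 nearly met, and the log2 fold change was -0.19 with an SE of 0.066. Cox8a, a small subunit of complex IV, was at 299.8, 286, 294, 291 and 288 CPM in controls and 223, 213, 264, 249 and 297 CPM in exposed libraries. Exposed 5 lay inside the control range and the other 4 lay below it, with a log2 fold change of -0.23 and an SE of 0.077. Cox7b of the same complex was at 111, 114, 121, 123 and 128 CPM in controls and 103, 115, 103, 98.8 and 110.1 CPM in exposed libraries. Exposed 2 alone lay within the control range of Cox7b.

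As one score per library, the mean of log2(CPM + 1) over the 77 subunits, controls were at 6.43, 6.45, 6.54, 6.54 and 6.58 and exposed libraries at 6.36, 6.49, 6.35, 6.36 and 6.47. The groups overlap: exposed 2 and 5 lay above controls 1 and 2, and exposed 1, 3 and 4 lay below all controls. With single libraries left out the median over the 77 subunits stayed between -0.11 without control 1 and -0.079 without control 5. The number at an unadjusted p below 0.05 was 12 without exposed 4, 44 without exposed 2 and 29 without both, where all 77 were lower. With a term for the sequencing index, 77 of 77 were lower with a median of -0.12.

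**Figure D2:**
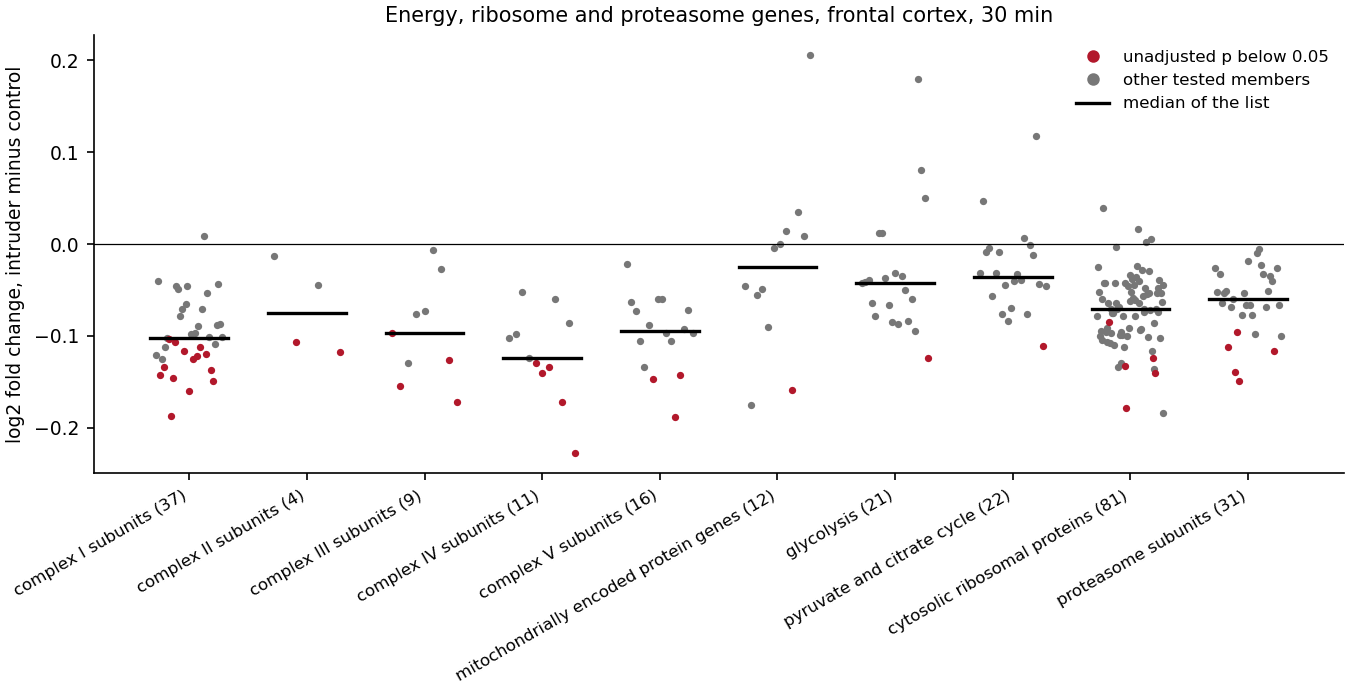
Log2 fold change of intruder-exposed over control residents for each tested member of 10 gene lists, with the number tested in parentheses, unadjusted p below 0.05 in red and the list median as a black bar. Nearly all members of complexes I to V, of the ribosome and of the proteasome lie below 0, with list medians between -0.12 and -0.06.

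The difference of a gene also varied with the length of its exons. With genes sorted by merged exon length into 10 bins of equal size, the median log2 fold change was -0.046 in the bin of the shortest genes, of which 38.5% were higher, and 0.041 in that of the longest, of which 71.5% were higher. The libraries differed in it: relative to the mean of the 10 libraries, the bin of the shortest genes lay at -0.071, -0.024, -0.069 and -0.044 in exposed 1 to 4 but at 0.051 in exposed 5, and at -0.0016, 0.0074, 0.042, 0.026 and 0.069 in controls 1 to 5. The 77 respiratory chain genes had a median length of 1718 bases. With each library's trend on length put into the fit as an offset, a step added after seeing the data, 73 of the 77 subunits were lower with a median of -0.071, and 23 reached an unadjusted p below 0.05.

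**Figure D3:**
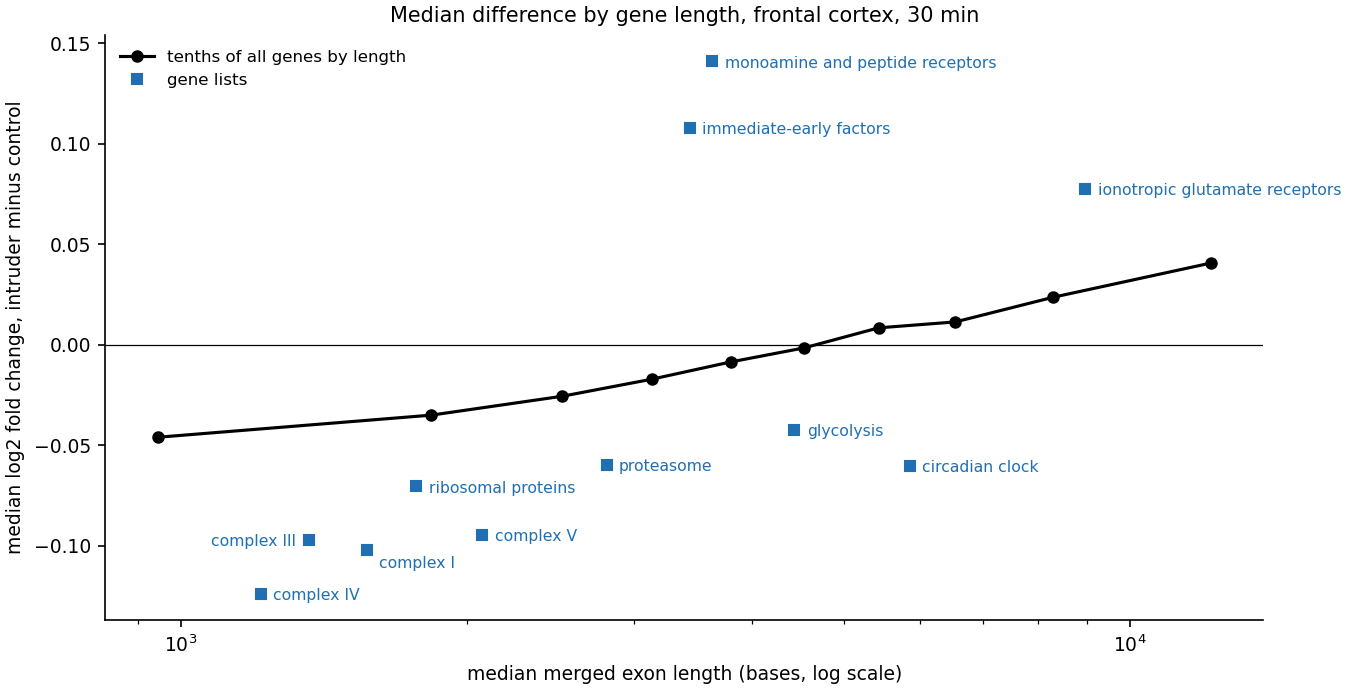
Median log2 fold change against median merged exon length on a log axis, for 10 bins of all genes with a known length (black) and for 11 gene lists (blue squares). The bins run from -0.046 to 0.041, and complexes I, III, IV and V lie below the bins of like length.

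Genes of the ribosome and of the proteasome were also lower in mean with few exceptions. Of 81 tested cytosolic ribosomal protein genes, 77 were lower, with a median of -0.071. Of the 81, 5 were lower at an unadjusted p below 0.05, beside 3.77% of all genes, and this count was 13 without exposed 5, 10 without exposed 2, 8 without exposed 4 and 2 with the index term or upper-quartile scaling. After the length correction 71 were lower and the median was -0.040, and without exposed 3 it was -0.036. All 31 genes for proteasome subunits, the particle that degrades tagged proteins, were lower, with a median of -0.060 and 5 of 31 at an unadjusted p below 0.05, beside 3.77% of all genes. The count at that p was 10 without exposed 2 and 8 with the index term. The length correction left 30 lower, 3 at that p and a median of -0.037, and without control 5 the median was -0.038. Psmd4, a ubiquitin receptor of the proteasome, was at 77.8, 77.5, 81.3, 79.3 and 82.3 CPM in controls and 72.5, 74.8, 72.1, 74.2 and 73.5 CPM in exposed libraries. The groups did not overlap, and the log2 fold change was -0.12 with an SE of 0.039 (edgeR, unadjusted p 0.00573). Psmb3 of the catalytic core was likewise apart, at 42.5, 43.4, 46.7, 43.4 and 47.2 CPM in controls and 41.3, 40.2, 37.4, 42.2 and 41.6 CPM in exposed libraries. Rpl38 had the smallest p of the ribosomal genes, with a log2 fold change of -0.18 and an SE of 0.063, and its groups overlapped.

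Pathways that feed the chain had medians closer to 0. Glycolysis had 16 of 21 genes lower with a median of -0.042, and the pyruvate and citrate cycle list 19 of 22 with a median of -0.036. Tpi1, triose phosphate isomerase, and Suclg1, a succinyl-CoA ligase subunit, were the single members of those lists at an unadjusted p below 0.05, with log2 fold changes of -0.12 and -0.11. Without exposed 2 the lower members at that p were 6 in each list, and with the index term 5 in each, while 3.77% of all genes were lower at that p in the full set of libraries. Without exposed 4 the second list had none. Regulators of mitochondrial biogenesis were split, 11 higher and 10 lower. Among them Sirt3, a deacetylase inside mitochondria, was at 55.1, 54.1, 53.5, 53.8 and 52.4 CPM in controls and 47.95, 47.9, 50.5, 47.02 and 51.3 CPM in exposed libraries. The groups did not overlap for Sirt3, and the log2 fold change was -0.14 with an SE of 0.054 (edgeR, unadjusted p 0.0171). It was 1 of 21 regulators wholly lower, beside 0.626% of all genes. Of the 21, 2 were lower at an unadjusted p below 0.05, beside 3.77% of all genes. With the index term, or without exposed 2 and 4, none was.

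No member of the receptor and channel lists had groups that did not overlap, beside 0.451% of all genes wholly higher and 0.626% wholly lower. Of 31 monoamine and neuropeptide receptors 22 were higher with a median of 0.14, but with the index term 14 were higher and 17 lower with a median of -0.036. Htr4, a serotonin receptor, was at 0.763, 0.442, 0.685, 0.471 and 1.26 CPM in controls and 2.99, 5.49, 0.412, 0.935 and 0.584 CPM in exposed libraries. Exposed 1 and 2 lay above every control and the other 3 within or just under the control range. Adra1b, an adrenergic receptor, lay lower, with a log2 fold change of -0.38 and an SE of 0.15. Of 15 ionotropic glutamate receptors 9 were higher with a median of 0.078, and the kainate receptor gene Grik1 alone reached an unadjusted p below 0.05, beside 6.28% of all genes, with a log2 fold change of 0.26. None of the 15 did without exposed 4 or with the index term, and the median was 0.016 without exposed 3. GABA-A receptors, voltage-gated potassium channels, vesicle and release proteins and postsynaptic scaffolds had medians between -0.0019 and 0.011. Of 6 steroid receptors tested 4 were higher, with a median of 0.13, and of 4 nuclear long noncoding RNAs all 4, with a median of 0.080, with no member at an unadjusted p below 0.05. Without exposed 4 the medians were 0.060 for the steroid receptors, 3 of them higher, and 0.029 for the noncoding RNAs, 3 of them higher.

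Stress-related genes overlapped between the groups. Over all genes, 0.451% had every exposed library above every control and 0.626% had every one below. None of 18 glucocorticoid-induced genes and none of 16 heat shock and cold-inducible genes reached an unadjusted p below 0.05, beside 6.28% of all genes. Of them 12 and 14 were lower, with medians of -0.046 and -0.070. The test between times sets the intruder effect at 30 min against the mean of those at 60 and 120 min. There 6 of the 16 heat shock and cold-inducible genes had the lower effect at 30 min at an unadjusted p below 0.05 in edgeR. That held for 2.77% of all genes. The list's median log2 fold change was -0.070 at 30 min, 0.00079 at 60 min and 0.25 at 120 min. Fkbp5, which glucocorticoids induce strongly in brain, was at 43.3, 32.6, 38.9, 27.1 and 26.01 CPM in controls and 48.4, 41.6, 30.9, 34.5 and 28.97 CPM in exposed libraries, so its groups overlapped. Of 19 circadian clock genes 16 were lower with a median of -0.060, and 2 reached an unadjusted p below 0.05, beside 3.77% of all genes. Without exposed 5 none did and 12 were lower, and without exposed 2 or with the index term 1 did. Bhlhe40, a clock repressor that is also induced by activity, was at 221, 219, 238, 249.8 and 204 CPM in controls and 191, 172, 228, 219.9 and 131 CPM in exposed libraries. Exposed 5 was the lowest of all 10 libraries for it and exposed 3 and 4 lay within the control range. Cry2, the other clock gene, had a log2 fold change of -0.093 with an SE of 0.046.

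The 12 higher genes with the smallest p were Il17rd, Fam114a1, Klf11, Endou, Tmem209, Fbxo48, Zfp389, Olfm4, Pappa2, Moxd1, Upk1b and Glce. Their log2 fold changes ran from 0.20 for Tmem209 to 1.34 for Olfm4. Il17rd, Fam114a1, Klf11 and Fbxo48 had groups that did not overlap, beside 0.451% of all genes wholly higher. The genes were picked by their p in this same comparison, so groups that lie apart add no support. Il17rd, also known as Sef, restrains signalling from fibroblast growth factor receptors. It was at 4.31, 4.17, 3.54, 3.77 and 3.88 CPM in controls and 4.89, 4.98, 5.46, 6.24 and 5.88 CPM in exposed libraries. Every exposed library lay above every control, the means were 3.94 ± 0.308 and 5.49 ± 0.578 CPM (SD, n = 5 each), and the log2 fold change was 0.48 with an SE of 0.11 (edgeR, unadjusted p 7.98e-05, adjusted p 0.771). Klf11, a Krüppel-like transcription factor, was at 5.03, 4.595, 4.52, 4.94 and 4.13 CPM in controls and 5.61, 6.32, 5.37, 6.45 and 6.96 CPM in exposed libraries. The groups did not overlap for Klf11 either, with a log2 fold change of 0.40 and an SE of 0.11.

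Fam114a1 had a smaller but even difference, at 3.75, 4.44, 4.37, 3.92 and 3.99 CPM in controls and 4.83, 4.69, 4.92, 5.13 and 4.93 CPM in exposed libraries. Glce makes the iduronic acid of heparan sulfate, a co-receptor for growth factors, and its levels were 26.99, 26.4, 27.6, 25.6 and 28.4 CPM in controls and 32.7, 38.4, 28.1, 35.1 and 28.6 CPM in exposed libraries. Exposed 1, 2 and 4 lay above every control, exposed 5 just above the highest control and exposed 3 within the control range. Pappa2, a protease that frees insulin-like growth factors from binding proteins, had means of 2.104 ± 0.548 and 3.49 ± 1.44 CPM (SD, n = 5 each), with exposed 2 and 4 highest. Fbxo48, an F-box gene, Zfp389 and Olfm4 had mean levels under 1 CPM in both groups. Endou, Tmem209, Moxd1, a gene related to dopamine beta-hydroxylase, and the uroplakin gene Upk1b overlapped between the groups.

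The 12 lower genes with the smallest p were Ung, Fam53b, Lars2, Gcat, Ccdc63, Kcnmb4os1, Rara, Sdf2l1, Kcnn1, Sap30bp, Rn7sk and Skap1. Their log2 fold changes ran from -1.14 for Ccdc63 to -0.13 for Sap30bp. Lars2, Gcat, Ccdc63, Kcnmb4os1, Kcnn1, Sap30bp and Rn7sk had groups that did not overlap, beside 0.626% of all genes wholly lower. These genes too were picked by their p in this comparison, so groups that lie apart add no support. Lars2, the leucyl-tRNA synthetase of mitochondria, was at 207, 212, 247, 205 and 212 CPM in controls and 155, 143, 146, 156 and 177 CPM in exposed libraries. All exposed libraries lay below all controls, the means were 217 ± 17.4 and 155 ± 13.5 CPM (SD, n = 5 each), and the log2 fold change was -0.48 with an SE of 0.12 (edgeR, unadjusted p 0.000345, adjusted p 0.771). In the last section Lars2 stands in a set with Rn7sk and ribosomal RNAs, all 6 of which were lower. Whether the reads of Lars2 come from its mRNA was not tested. Gcat, a mitochondrial enzyme of threonine breakdown, was at 8.01, 8.13, 7.597, 7.65 and 7.95 CPM in controls and 6.39, 5.97, 6.76, 6.35 and 7.44 CPM in exposed libraries, again without overlap.

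Ung, the uracil-DNA glycosylase of base excision repair, had the smallest p of the lower genes. It was at 1.84, 2.35, 1.94, 2.299 and 2.22 CPM in controls and 1.58, 1.46, 1.86, 1.297 and 1.58 CPM in exposed libraries, where exposed 3 alone lay above the lowest control, with a log2 fold change of -0.46 and an SE of 0.10 (edgeR, unadjusted p 0.000138). Kcnn1, a small-conductance calcium-activated potassium channel that shapes the pause after spikes, was at 16.96, 16.6, 17.7, 18.8 and 16.6 CPM in controls and 15.7, 13.99, 15.3, 12.8 and 15.8 CPM in exposed libraries. Rara, the retinoic acid receptor alpha, had means of 12.3 ± 1.37 and 9.37 ± 1.78 CPM (SD, n = 5 each) with control 5 within the exposed range. Sap30bp had controls between 47.6 and 48.8 CPM and exposed libraries between 41.1 and 46.2 CPM. Kcnmb4os1 is an antisense RNA of the potassium channel gene Kcnmb4, and whether the counting used strand is not given in the sources used here, so reads of this RNA and of Kcnmb4 cannot be told apart here. Rn7sk, the noncoding RNA that holds an elongation factor inactive, was at 0.539, 0.883, 0.9399, 0.565 and 1.03 CPM in controls and 0.439, 0.411, 0.325, 0.496 and 0.351 CPM in exposed libraries. It has no poly(A) tail and so is not a target of mRNA selection.

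**Figure D4:**
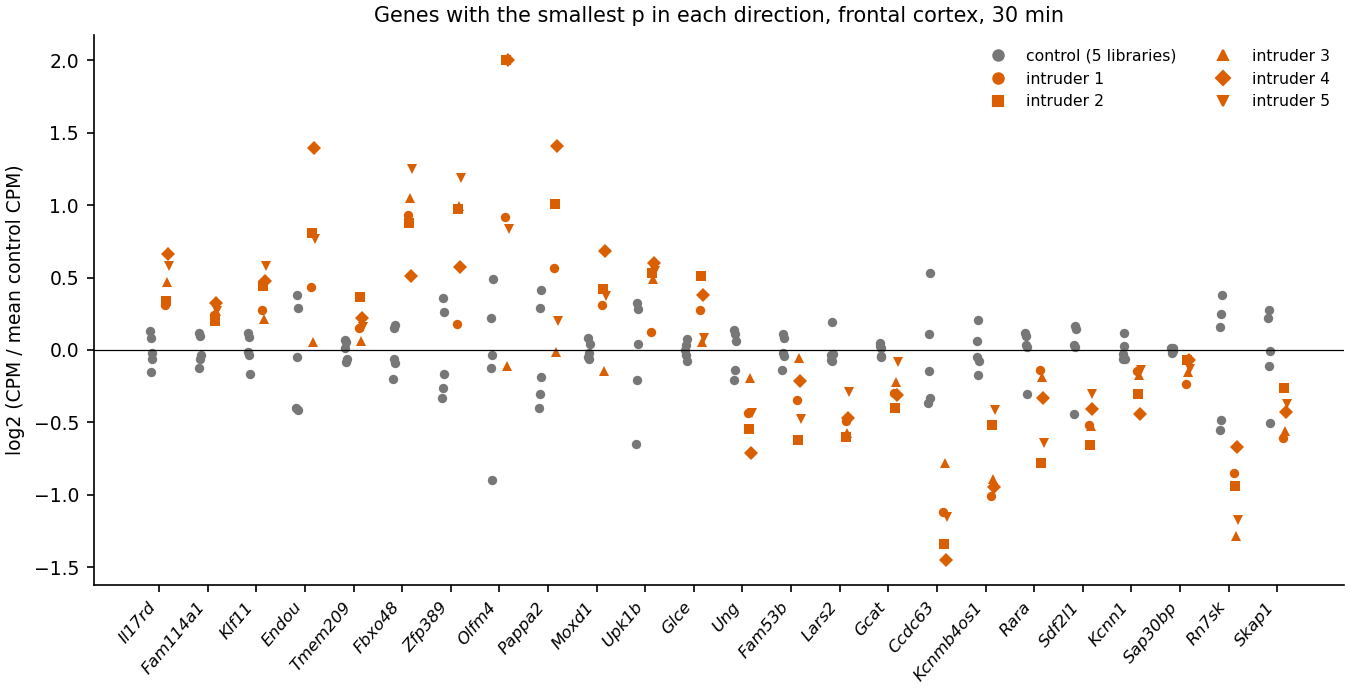
Log2 of CPM over the mean of controls for the 12 higher and 12 lower genes with the smallest p, with controls as grey circles and each exposed library as an orange symbol. Il17rd, Klf11 and Fbxo48 have all exposed libraries above the controls and Lars2, Gcat and Ccdc63 have them below, while exposed 2 and 4 are the highest libraries for Endou, Olfm4 and Pappa2.

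Sdf2l1, a cofactor of the chaperone BiP in the endoplasmic reticulum, was among the 12 lower genes and had the smallest p in the test of the difference between times. It was at 11.8, 16.5, 16.4, 18.04 and 17.8 CPM in controls and 11.2, 10.2, 11.2, 12.1 and 13.1 CPM in exposed libraries at 30 min, where control 1 alone lay within the exposed range. The 12 endoplasmic reticulum chaperone genes measured, a set chosen after its values were seen, were all lower in mean (median difference -0.16, log2 scale), beside 49.8% of all genes, and 6 had an unadjusted p below 0.05, beside 3.77%. Having been picked on these values, the set supports nothing. Of 18 mitochondrial import genes, chosen in the same way, 14 were lower. For Sdf2l1 the log2 fold change was -0.48 at 30 min, 0.055 at 60 min and 0.46 at 120 min. Over all genes, the test of the difference at 30 min against the mean of 60 and 120 min called none of 17091 (edgeR, smallest adjusted p 0.716), while 818 (4.79%) had an unadjusted p below 0.05. For DESeq2 the same counts were 0 and 782, and for limma voom 0 and 836. The p of Sdf2l1 was 7.92e-05 before adjustment, followed by Banp, a nuclear matrix protein, with log2 fold changes of -0.21, 0.11 and 0.12, and by Il17rd, with 0.48, -0.18 and 0.082.

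For the respiratory chain the differences in the other contrasts are given side by side, and none of the genes passed edgeR's test between them. The median of the 77 subunits was -0.10 at 30 min, 0.020 at 60 min and -0.0064 at 120 min in frontal cortex. At 30 min it was 0.055 in amygdala and -0.043 in hypothalamus. In the test between times 18 of the 77 reached an unadjusted p below 0.05 with the lower value at 30 min, beside 2.77% of all genes, and in the test between regions 12 did so with the lower value in frontal cortex, beside 2.85%. Ribosomal protein genes gave 9 and 11 of 81 in those tests. Adam12, a cell-surface metalloprotease, was at 4.11, 4.11, 4.15, 3.37 and 3.78 CPM in controls and 5.27, 5.51, 5.03, 5.23 and 4.83 CPM in exposed libraries of frontal cortex, with no overlap.

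The test between regions, frontal cortex against the mean of amygdala and hypothalamus at 30 min, called none of 17851 genes (edgeR, smallest adjusted p 0.407), while 1140 (6.39%) had an unadjusted p below 0.05. The same counts were 2 and 1149 for DESeq2, and 0 and 1069 for limma voom. The labels give the regions shared animals, and a fit with the animal as a block called 0 genes, with 1130 at that p and a smallest adjusted p of 0.761. Adam12 had log2 fold changes of 0.41 in frontal cortex, -0.16 in amygdala and 0.0078 in hypothalamus. Podxl2, a sialomucin, was at 132, 125, 132, 129 and 129.5 CPM in controls and 113, 103, 121, 113 and 118 CPM in exposed libraries of frontal cortex, where the groups did not overlap. Its log2 fold changes were -0.18, 0.19 and 0.051 in the same order of regions. Timm8b, a small chaperone of protein import into mitochondria, followed with -0.17, 0.11 and 0.0041.

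Markers of cell types and of neighbouring regions varied between libraries. The 11 markers of medium spiny neurons, the principal cells of the neighbouring striatum, scored 4.95, 4.25, 5.32, 4.22 and 5.31 in controls and 5.499, 6.61, 3.95, 4.64 and 5.302 in exposed libraries. Exposed 2 was the highest and exposed 3 the lowest. All 11 were higher in mean, with a median log2 fold change of 0.65, which was 0.11 without exposed 2. Drd1, a dopamine receptor of those neurons, was at 16.7, 9.23, 21.5, 6.96 and 18.8 CPM in controls and 27.5, 62.5, 5.31, 15.5 and 19.5 CPM in exposed libraries. In dissected tissue, fewer cells of a type and less RNA per cell cannot be told apart. Htr4 and Htr2c, a further serotonin receptor, were highest in exposed 2 as well, and the part of the striatal markers in these values was not tested.

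Of 7 excitatory neuron markers 6 were lower with a median of -0.13, which was -0.077 without exposed 2 and -0.029 with 4 lower without exposed 2 and 4, and exposed 2 had the lowest score, 8.08 beside 8.39 to 8.58 in controls. Neurod6, a factor of cortical projection neurons, was at 60.7, 72.5, 79.8, 91.7 and 81.01 CPM in controls and 70.8, 47.8, 75.1, 48.6 and 62.01 CPM in exposed libraries. Of 12 interneuron markers 7 were lower and 5 higher, with a median of -0.036, which was 0.0033 with 6 higher and 6 lower without exposed 5. Pvalb of fast-spiking cells lay lowest among them, with a log2 fold change of -0.39 and an SE of 0.18. Oligodendrocyte scores ran from 6.63 in exposed 3 to 7.41 in exposed 2, while the medians of astrocyte, microglia and endothelial markers were 0.014, -0.037 and 0.023. With single libraries left out they ranged from -0.013 to 0.037, -0.068 to -0.0069 and -0.029 to 0.084. With the index term the endothelial median was 0.13, with 9 of 10 higher. Of 9 markers of layers 4 to 5, 8 were lower with a median of -0.095, which was -0.050 without exposed 4. Of 9 layer 6 markers 6 were higher with a median of 0.15, which was 0.013 without exposed 2 and -0.075 with the index term, where 3 were higher. Of 9 upper-layer markers 4 were higher and 5 lower with a median of -0.015. It was 0.022 without exposed 2, -0.045 without exposed 3 and 0.041 with the index term. In layer 6, Ntsr1, a neurotensin receptor, was higher at an unadjusted p below 0.05 in edgeR, with a log2 fold change of 0.55, as 1 of 9. Otof was likewise 1 of 9 among upper-layer markers, with 0.61, and 2.52% of all genes were higher at that p. No upper-layer marker was at such a p without exposed 2, no layer 6 marker was higher at it without exposed 4, and with the index term neither list had a higher one. Markers of pericytes, meninges, red blood cells, oligodendrocyte precursors and thalamus had medians between -0.014 and 0.062. With single libraries left out these medians ranged from -0.0066 to 0.15 for pericytes, -0.056 to 0.082 for meninges, -0.075 to 0.13 for red blood cells, -0.0020 to 0.086 for oligodendrocyte precursors and -0.041 to 0.098 for thalamus, so none kept its sign. The lowest came without exposed 3, exposed 3, control 4, exposed 4 and exposed 2 in that order, and the highest without control 2, exposed 4, exposed 1, control 2 and control 2. With the index term the medians were 0.165, -0.069, 0.166, 0.086 and -0.049 in the same order. Of 10 pericyte markers 8 were higher, and 2 of 10 were higher at an unadjusted p below 0.05, beside 2.52% of all genes. Olfactory bulb and choroid plexus markers were highest in control 1, with scores of 3.38 and 2.66. Of 9 olfactory bulb markers 7 were lower with a median of -0.66, which was -0.030 without control 1, and of 9 choroid plexus markers 8 were lower with a median of -0.37, which was 0.29 without control 1. The SD of the score over controls was 0.701 for olfactory bulb, 0.688 for choroid plexus and 0.548 for striatal markers. With the index term the 11 striatal markers were all lower, with a median of -0.11.

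**Figure D5:**
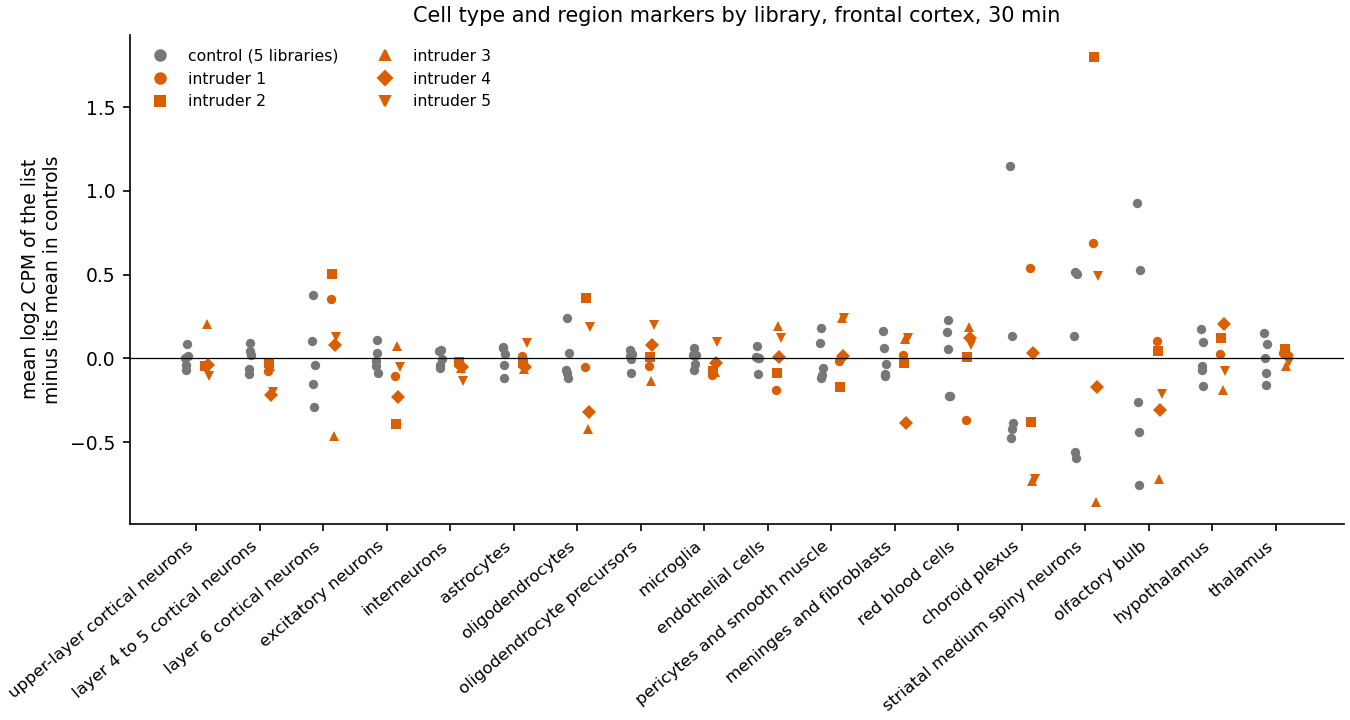
Score of each marker list, the mean of log2(CPM + 1) over its genes, minus the mean of the 5 controls, in each of the 10 libraries. Exposed 2 (square) lies 1.8 above the controls for striatal markers, and control 1 is the highest library for olfactory bulb and choroid plexus markers.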

How the data were processed

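RNA-seq libraries (TruSeq stranded mRNA, single-end) were made from frontal cortex, amygdala and hypothalamus. The deposited table holds raw read counts per gene, made by the authors. Per the submitters' processing notes the tools were CASAVA 1.8.2, TopHat2 2.0.8, HTSeq 0.6.1, R 3.0.0 and edgeR 3.2.4 with build NCBIM37, and the annotation release and strand setting are not given in the sources used here. The 5 rows that name no gene were left out: reads without a feature were 10.99 to 13.19%, ambiguous reads 0.658 to 0.706% and reads not uniquely aligned 10.05 to 10.67% of each library. Among the 20 pairs of libraries within the 2 groups none was near-identical, and other pairs were not compared. Gene names and exon lengths came from a GRCm38 annotation by gene ID, and promoters from RefSeq.

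The 32 frontal cortex libraries entered 1 edgeR 4.0.16 fit (R 4.3.3) with TMM scaling, filterByExpr and a mean per group of time and exposure, tested by quasi-likelihood with Benjamini-Hochberg adjustment at 0.05. The difference between times came from the same fit and that between regions from a fit of the 28 libraries at 30 min. By the labels' animal identifiers, regions at 30 min share animals, which the latter fit does not model; a fit with the animal as a block was an alternative. The procedure was tested on simulated data. Alternatives were DESeq2 1.42.0, limma 3.58.1 voom, upper-quartile scaling, other filters, the 10 libraries alone, a replicate block, an index term, a length correction and left-out libraries. Named were the 12 higher and 12 lower genes with the smallest p, members of 42 gene lists, and the 3 genes with the smallest p in each test of a difference. Members and lists were chosen with earlier results of these data known.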

Additional observations from a re-analysis of the deposited data

Results flagged for a closer look

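In 170 groups of 5 values, 12 held a value whose gap to the nearest other, divided by the group's range, exceeded the critical value of 0.71, and chance flags about 1 in 20 groups. Exposed 4 stood apart for Fosb at 52.8 CPM, Egr2 at 60.6 CPM and Npas4 at 54.7 CPM, where the nearest exposed library was at 25.3, 24.3 and 30.1 CPM. Among the 24 genes with the smallest p, control 3 stood high for Lars2 at 247 CPM, control 5 low for Rara at 9.96 CPM and control 1 low for Sdf2l1 at 11.8 CPM, and exposed 1 low for Upk1b at 0.958 CPM. Among scores, the mean of log2(CPM + 1) over a list, exposed 1 stood high for glucocorticoid-induced genes at 4.78 and for heat shock and cold-inducible genes at 6.77. Exposed 2 stood high for proteasome subunits at 6.31, and exposed 3 for upper-layer cortical neuron markers at 7.55. Exposed 5 had the highest share of reads without a unique alignment, 10.7%, where the next exposed library had 10.2%.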

How the results depend on the processing

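Every alternative kept 0 genes called at 30 min in frontal cortex, and the smallest adjusted p under them lay between 0.102 (the 10 libraries alone) and 0.999. With single libraries left out, or exposed 2 and 4 together, the number of genes at an unadjusted p below 0.05 ranged from 621 to 1372, the higher ones from 271 to 721 and the lower ones from 334 to 775. It was 680 without control 3 and 629 without control 4. The higher genes numbered 271 without control 4 and 721 without exposed 3, and the lower ones 337 without control 3 and 358 without control 4. The higher genes were 662 without a filter on low counts, where more genes are tested, and 656 in a fit of the 10 libraries alone. DESeq2 called 2 genes in the test between regions. The cause was not tested for any of these.

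The same numbers stand in both groups. The correlation of the deviations of libraries of one number ran from -0.37 to 0.25 over the 5 numbers. Whether the numbers mark a pairing cannot be told from these values, and the main fit used none. The replicate block gave 0 genes called and 1001 at an unadjusted p below 0.05, and log2 fold changes of -0.028 for Egr4 and -0.057 for Nr4a1, both above 0 without it.

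Left-out libraries moved list medians within -0.18 to 0.23 for immediate-early factors, -0.13 to 0.11 for effectors, -0.023 to 0.011 for mitochondrial biogenesis regulators, 0.016 to 0.090 for ionotropic glutamate receptors, -0.030 to 0.049 for GABA-A receptors, -0.034 to 0.036 for voltage-gated potassium channels, -0.029 to 0.047 for postsynaptic scaffolds, 0.064 to 0.25 for monoamine and neuropeptide receptors, 0.043 to 0.19 for steroid receptors, -0.089 to -0.036 for ribosomal proteins, -0.088 to -0.038 for proteasome subunits, -0.12 to -0.058 for complex V, -0.12 to -0.053 for complex II, -0.15 to -0.096 for complex IV, -0.075 to 0.0050 for mitochondrially encoded genes, -0.054 to -0.018 for pyruvate and citrate cycle, -0.095 to -0.026 for heat shock genes and -0.11 to 0.037 for glucocorticoid-induced genes. The term for the sequencing index gave medians of -0.019 for mitochondrial biogenesis regulators, -0.042 for GABA-A receptors, 0.060 for postsynaptic scaffolds, -0.036 for monoamine and neuropeptide receptors and 0.084 for steroid receptors. The length correction gave -0.013 for mitochondrial biogenesis regulators and -0.014 for voltage-gated potassium channels. Single genes that changed sign with a left-out library had ranges of -0.27 to 0.38 for Fos, -0.17 to 0.38 for Fosb, -0.30 to 0.27 for Junb, -0.23 to 0.10 for Egr1, -0.32 to 0.46 for Egr2, -0.22 to 0.11 for Egr3, -0.23 to 0.15 for Egr4, -0.34 to 0.23 for Nr4a1, -0.12 to 0.34 for Npas4, -0.34 to 0.15 for Arc and -0.22 to 0.27 for Dusp1. Egr1 was at 0.0016 with DESeq2, 0.0026 with a filter of 1 CPM in 5 libraries and 0.095 with the index term. With the index term Egr3 was at 0.17 and Arc at 0.031, and limma voom gave -0.029 for Egr4 and -0.056 for Nr4a1. The length correction and the removal of exposed 2 and 4 together were chosen after seeing the data.

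Genes such as Ccdc63, at 0.378 CPM or less in every library, rest on few reads at this depth.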

Other observations

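The named genes are joined by other groups that were chosen after their values were seen and support nothing. Of 422 measured zinc finger genes of the Zfp, Zbtb, Zscan and Zkscan families 275 were higher in mean in exposed libraries, with a median log2 fold change of 0.032. Of 815 lincRNA, antisense and processed transcript genes 495 were higher, with a median of 0.050. Lars2, Rn7sk, both mitochondrial ribosomal RNAs and 2 gene models of ribosomal RNA, Gm23935 and Gm15564, were all lower, with a median of -0.39 over these 6.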
